A study of Mus musculus with 9 samples.

Results

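The genes described here encode receptors for complement fragments, formyl peptides and thrombin: C3ar1 and C5ar1, Fpr1 and Fpr2, and the protease-activated receptors F2r, F2rl1 and F2rl2. They were named as a set of 7, and their values were taken from probe sets to which the array annotation gives 1 gene symbol. Such a probe set was found for 4 of them (C3ar1, C5ar1, F2r and F2rl2), 1 each, among 19937 genes; Fpr1, Fpr2 and F2rl1 were not analysed here. C3ar1 and F2rl2 were chosen by their rises over the control hairpin in these same arrays, so their differences from the control are a description and carry no test. C5ar1 and F2r were taken as relatives, and their differences were read from the fit over all genes.

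Each of these receptors spans the membrane with a bundle of helices, and most of them signal through heterotrimeric G proteins. C3a and C5a, small fragments released when complement is activated, bind C3ar1 and C5ar1 and draw phagocytes and mast cells to sites of infection; formylated bacterial peptides do the same through Fpr1 and Fpr2. The protease-activated receptors carry their own ligand, which a protease such as thrombin exposes by cutting the receptor's outer end. In blood they are best known on platelets, where F2rl2 (PAR3) in the mouse presents thrombin to F2rl3 (PAR4).

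Expression was measured on 9 Affymetrix arrays of RN2 cells, acute myeloid leukaemia cells of the mouse that carry MLL-AF9 and NrasG12D. Every culture carried an inducible hairpin, by the array titles in the TRMPV vector, and received 1 ug/ml doxycycline for 96 h. The knockdown groups, Brg1sh_3232, Brg1sh_3364 and Brg1sh_4935 (2 arrays each), target Brg1, the ATPase of the SWI/SNF chromatin remodelling complex, and the control hairpin, Rluc, targets Renilla luciferase (3 arrays). All 9 arrays thus share RN2 cells and the TRMPV vector by their titles, and the drug. The labels add the term TtTMPV to the cell line name of the Rluc arrays alone. Whether these share subline and vector with the knockdown arrays is therefore not known. That difference cannot be told apart from the knockdown. Separate cultures are not stated for the arrays of a group, and p-values therefore cover only the spread between these arrays, which may be technical.

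Values are on the log2 scale, and array medians lay between 7.39 and 7.49. Smarca4, which encodes Brg1, was left at 50.0%, 50.3% and 48.2% of the control level with Brg1sh_3232, Brg1sh_3364 and Brg1sh_4935, and these did not differ detectably (F test among the hairpins, adjusted p = 0.802). All 12 markers fixed for leukaemic myeloid cells were measured, and their mean level was 12.3 to 12.5 on every array. Single markers moved both ways in the mean of the hairpins, 6 higher and 5 lower. Mpo fell by 0.87 (SE 0.05), Cebpa by 0.61 (SE 0.04) and Hoxa9 by 0.40 (SE 0.05), and Csf3r rose by 0.51 (SE 0.09). Levels of different genes are not set against each other, since probe sets differ in brightness.

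Among the complement receptors, C3ar1 (probe set 10547657, Entrez 12267) stood far above the control with every Brg1 hairpin. The Rluc arrays read 7.27, 7.77 and 8.23. Brg1sh_3232 gave 10.84 and 11.03, Brg1sh_3364 gave 10.59 and 10.41, and Brg1sh_4935 gave 12.04 and 12.08. All 6 knockdown arrays lay above all 3 controls, with Brg1sh_4935 highest and Brg1sh_3364 lowest. Over the group mean of 7.76 ± 0.48 (SD, n = 3) in Rluc, the differences were 3.18 (9.06-fold) with Brg1sh_3232, 2.74 (6.69-fold) with Brg1sh_3364 and 4.31 (19.8-fold) with Brg1sh_4935, each with SE 0.22. By the mean of the hairpins, a difference of 3.41 (SE 0.17), C3ar1 ranked 2 of 19937 genes. In bulk RNA, more cells that express a gene and more RNA per cell cannot be told apart.

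C5ar1 (probe set 10560242, Entrez 12273), the main signalling receptor for C5a, followed another order. It read 9.08, 9.08 and 9.02 in Rluc and 8.98 and 9.07 with Brg1sh_3232, so those arrays overlapped. It read 10.05 and 10.08 with Brg1sh_3364 and 9.59 and 9.58 with Brg1sh_4935, all 4 above every control. C5ar1 rose by 1.00 with Brg1sh_3364 (2.01-fold, SE 0.05, adjusted p = 2.92e-06) and by 0.52 with Brg1sh_4935 (1.43-fold, SE 0.05, adjusted p = 8.24e-05). With Brg1sh_3232 the difference was -0.03 (95% interval -0.14 to 0.07, adjusted p = 0.713). The mean of the hairpins, 0.50 (SE 0.04, adjusted p = 1.59e-05), averages these unlike groups, and the call was lost when the 3 hairpin means stood as single replicates (adjusted p = 0.249).

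**Figure D1:**
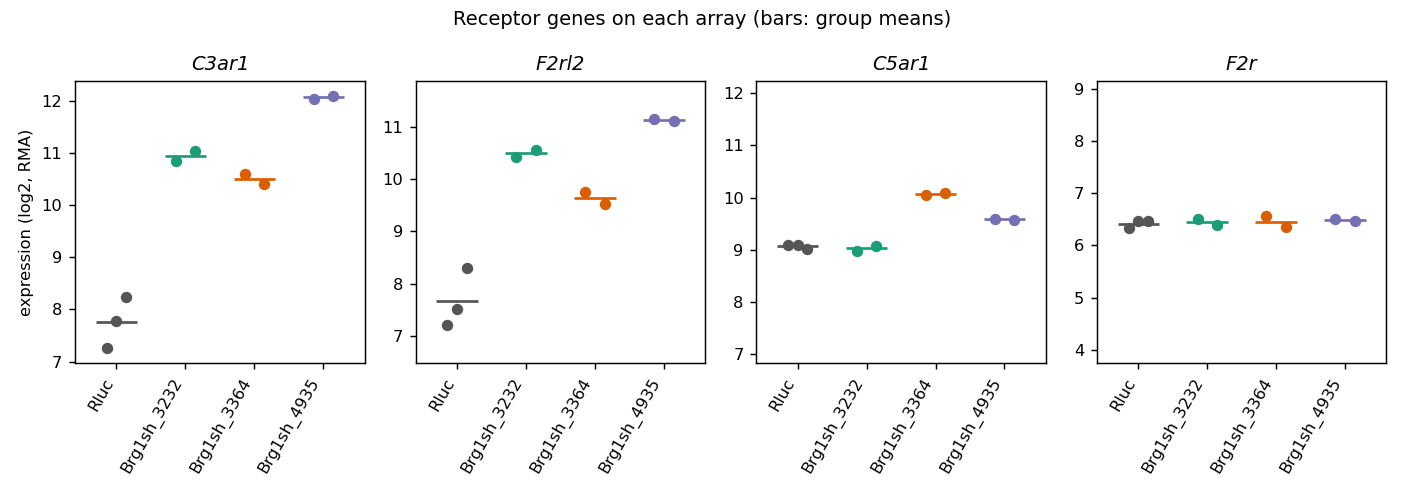
Log2 expression (RMA) of C3ar1, F2rl2, C5ar1 and F2r on each of the 9 arrays by hairpin group; points are arrays, bars are group means, and every panel covers the same number of log2 units. C3ar1 and F2rl2 lie above the Rluc arrays in all 6 knockdown arrays, C5ar1 does so in 4, and the F2r groups overlap.

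Of the protease-activated receptors, F2rl2 (probe set 10406736, Entrez 14064) resembled C3ar1 in the order of its groups. Rluc arrays read 7.20, 7.51 and 8.30. The knockdown arrays read 10.43 and 10.56 (Brg1sh_3232), 9.75 and 9.52 (Brg1sh_3364), and 11.16 and 11.11 (Brg1sh_4935). Again all 6 knockdown arrays lay above all 3 controls, Brg1sh_4935 highest and Brg1sh_3364 lowest. Against 7.67 ± 0.56 (SD, n = 3) in Rluc the differences were 2.83 (7.09-fold), 1.97 (3.91-fold) and 3.46 (11.0-fold) in the order of the hairpin numbers, each with SE 0.26. Its mean difference of 2.75 (SE 0.20) ranked 7 of 19937. These values depend on single Rluc arrays: the 3 differences and their mean were 3.14, 2.28, 3.77 and 3.06 without replicate 3, and 2.59, 1.73, 3.23 and 2.52 without replicate 1.

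F2r (probe set 10411229, Entrez 14062), which encodes the thrombin receptor PAR1, showed no detectable difference. It read 6.33, 6.46 and 6.46 in Rluc, and between 6.34 and 6.56 over the 6 knockdown arrays, of which 3 lay above every control. The group means were 6.42 ± 0.07 (SD, n = 3) in Rluc, then 6.45 ± 0.09, 6.45 ± 0.15 and 6.48 ± 0.03 (SD, n = 2 each). Differences were 0.03, 0.03 and 0.06 (SE 0.07 each; adjusted p = 0.844, 0.813 and 0.692), and the 95% interval of their mean ran from -0.09 to 0.17. F2r lies below the array medians, and without detection calls its distance from background was not tested.

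Counted together, the 4 measured receptors gave 2 higher calls with Brg1sh_3232, where 9.59% of all genes were called higher, and 0 lower, where 11.3% were. With Brg1sh_3364 there were 3 higher and 0 lower calls (all genes: 13.6% and 12.2%), and with Brg1sh_4935 again 3 and 0 (all genes: 9.79% and 12.3%). The mean of the hairpins gave 3 and 0 (all genes: 13.3% and 15.0%). C3ar1 and F2rl2 are in each of these counts because they were picked for their rises, so nothing is read from them. Of the pair that was not, C5ar1 was called higher with Brg1sh_3364, with Brg1sh_4935 and in the mean, and F2r in no comparison. The 6 knockdown arrays lay above all 3 controls for 10.7% of all genes and below all 3 for 12.1%; among the receptors this held for the picked C3ar1 and F2rl2, upwards, and for neither C5ar1 nor F2r. All 3 comparisons share the Rluc arrays.

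**Figure D2:**
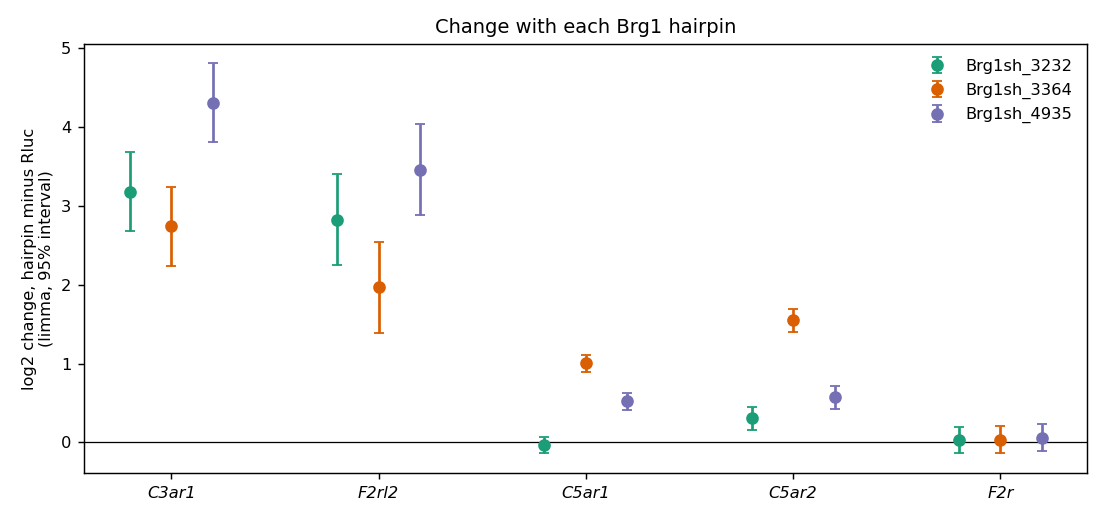
Log2 difference of each hairpin group from Rluc for C3ar1, F2rl2, C5ar1, its neighbour C5ar2, and F2r, with 95% intervals from the limma fit; the line at 0 marks the control. Brg1sh_4935 is highest for C3ar1 and F2rl2, Brg1sh_3364 is highest for C5ar1 and C5ar2, and all F2r intervals cover 0.

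Upstream sequence is shown for the 4 measured genes because C3ar1 and F2rl2 stood high together while F2r did not move; the motifs were chosen with those results known. Each line gives 250 bases up to the base before the annotated start, 5′ to 3′ on the gene's strand, from the RefSeq promoter table of GRCm38.p6. That table holds 6 of the 7 genes. Capitals mark TGANTCA, a loose form of the core that AP-1 factors bind, TGACTCA or TGAGTCA, since it leaves the middle base free. This pattern reads alike on both strands and was counted once. The positions are chr6:122856158-122856407 (minus strand) for C3ar1, chr13:95696670-95696919 (plus strand) for F2rl2, chr7:16259339-16259588 (minus strand) for C5ar1 and chr13:95618467-95618716 (minus strand) for F2r.
C3ar1: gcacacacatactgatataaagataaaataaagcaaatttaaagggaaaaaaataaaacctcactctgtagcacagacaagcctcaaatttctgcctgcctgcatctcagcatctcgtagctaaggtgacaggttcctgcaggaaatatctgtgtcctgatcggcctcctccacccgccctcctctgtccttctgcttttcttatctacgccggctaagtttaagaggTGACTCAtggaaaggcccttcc
F2rl2: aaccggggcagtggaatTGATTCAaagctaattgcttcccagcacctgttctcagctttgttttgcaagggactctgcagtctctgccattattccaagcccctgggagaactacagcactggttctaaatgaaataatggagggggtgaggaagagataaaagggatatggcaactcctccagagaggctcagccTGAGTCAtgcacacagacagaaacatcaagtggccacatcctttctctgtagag
C5ar1: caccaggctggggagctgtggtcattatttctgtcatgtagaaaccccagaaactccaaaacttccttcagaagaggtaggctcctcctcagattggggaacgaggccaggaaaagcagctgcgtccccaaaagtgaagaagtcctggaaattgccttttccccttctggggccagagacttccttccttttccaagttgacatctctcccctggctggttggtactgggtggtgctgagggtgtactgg
F2r: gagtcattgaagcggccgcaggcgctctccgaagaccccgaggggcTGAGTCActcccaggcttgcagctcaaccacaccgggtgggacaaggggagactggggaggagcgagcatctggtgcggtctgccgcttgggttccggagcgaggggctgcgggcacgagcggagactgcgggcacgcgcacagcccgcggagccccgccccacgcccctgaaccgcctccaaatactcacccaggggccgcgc

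TGANTCA stands in 6.75% of 32851 RefSeq promoters over the same 250 bases. C3ar1 has 1 match, TGACTCA, at bases 22 to 16 before the start. F2rl2 has 2, TGATTCA at 233 to 227, which fits the loose form alone, and TGAGTCA at 54 to 48. F2r, whose RNA did not differ detectably, has 1 match too, TGAGTCA at 204 to 198, and C5ar1 has none. AGATAA, the GATA core, was searched on both strands and stands in 9.99% of promoters; C3ar1 has 2 matches and F2rl2 has 1. GAGGAA, a core of the PU.1 site (23.3% of promoters), occurs once in F2rl2. TTNCNNAA, the C/EBP core (36.8%), occurs once each in F2rl2 and C5ar1. TGTGGT, the RUNX core (14% of promoters), occurs once in C5ar1 and once in F2r, and CACGTG (6.02%) in none of the 4. These are matches of letters, not measured binding.

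The hairpins were then set against each other. The Rluc arrays do not enter these differences, but they enter the shared estimate of the spread, and the knockdown arrays themselves entered the choice of C3ar1 and F2rl2. An F test over the hairpin groups called 3 of the 4 receptors: C5ar1 (adjusted p = 7.73e-05), C3ar1 (adjusted p = 0.00937) and F2rl2 (adjusted p = 0.0244), but not F2r (adjusted p = 0.968). It called 10.5% of all genes; with 2 of the 3 picked on these arrays, nothing is read from that count, and of the pair not picked C5ar1 was called. Smarca4 RNA did not differ detectably among the hairpins, as given above, and whether the degree of knockdown bears on these differences was not tested. C3ar1 was 1.56 higher with Brg1sh_4935 than with Brg1sh_3364 (2.95-fold, SE 0.24, adjusted p = 0.00555), and F2rl2 was 1.49 higher (2.81-fold, SE 0.28, adjusted p = 0.0132). C5ar1 ran the other way and was 0.49 lower with Brg1sh_4935 than with Brg1sh_3364 (log2 difference -0.49, SE 0.05, adjusted p = 0.00109). That pair of hairpins called 7.61% of all genes and 3 receptors, of which C5ar1 was not picked, and nothing is read from the count.

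Between Brg1sh_3364 and Brg1sh_3232, where 9.66% of genes were called, C5ar1 was the 1 receptor called, 1.04 higher with Brg1sh_3364 (2.05-fold, SE 0.05, adjusted p = 2.47e-05). C3ar1 differed by -0.44 (95% interval -0.99 to 0.11, adjusted p = 0.311) and F2rl2 by -0.86 (95% interval -1.49 to -0.23, adjusted p = 0.0911). Between Brg1sh_4935 and Brg1sh_3232, where 1.02% of genes were called, C5ar1 was again the 1 receptor called, 0.55 higher with Brg1sh_4935 (1.47-fold, SE 0.05, adjusted p = 0.0049). C3ar1 differed by 1.13 (95% interval 0.58 to 1.67, adjusted p = 0.0717) and F2rl2 by 0.63 (95% interval -0.00 to 1.27, adjusted p = 0.343). C5ar1 could therefore be ordered over all 3 hairpins, Brg1sh_3232 below Brg1sh_4935 below Brg1sh_3364. For C3ar1 and F2rl2 the ends of the order, Brg1sh_3364 and Brg1sh_4935, passed the threshold. The neighbours, Brg1sh_3364 with Brg1sh_3232 and Brg1sh_3232 with Brg1sh_4935, did not. Both genes were picked on these same arrays, so their order is a description and no verdict is read from it.

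These differences kept their size when single arrays were left out, but several calls were lost, with the spread of a lone array then taken from the other groups. Over all 9 omissions, Brg1sh_4935 minus Brg1sh_3364 ranged from 1.47 to 1.65 for C3ar1 and 1.38 to 1.61 for F2rl2, and Brg1sh_4935 minus Brg1sh_3232 from 0.51 to 0.60 for C5ar1. Without either Brg1sh_4935 array, C5ar1 was no longer called between Brg1sh_4935 and Brg1sh_3232 (adjusted p = 0.0714 and 0.0811), and its other hairpin calls kept their side. The C3ar1 difference between Brg1sh_4935 and Brg1sh_3364 was lost without Brg1sh_3364 replicate 2 (adjusted p = 0.0579) or Brg1sh_4935 replicate 1 or 2 (0.0561 and 0.0626). The same F2rl2 difference was lost without either array of Brg1sh_3364 (0.0764 and 0.096) or Brg1sh_4935 (0.106 and 0.0943). The F test of C3ar1 was lost without either array of Brg1sh_3364 (0.0554 and 0.063) or Brg1sh_4935 (0.0706 and 0.0802), and that of F2rl2 without any 1 of the 6 knockdown arrays (0.0626 to 0.139).

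Spread in the control group was unlike between the receptors. The SD over the 3 Rluc arrays was 0.483 for C3ar1, exceeded by 21 of 19937 genes, and 0.565 for F2rl2, exceeded by 9, against a median gene of 0.0641. For C5ar1 it was 0.0345 and for F2r 0.0720. C3ar1 and F2rl2 were both lowest in Rluc replicate 1 and highest in replicate 3. Leaving out replicate 3, the C3ar1 differences became 3.42, 2.98 and 4.54 in the order of the hairpin numbers, and leaving out replicate 1 they became 2.94, 2.50 and 4.06. The C3ar1 difference between Brg1sh_4935 and Brg1sh_3232 passed the threshold without replicate 3 (adjusted p = 0.0142) and without replicate 1 (0.0148). For F2rl2, leaving out replicate 3 brought Brg1sh_3364 against Brg1sh_3232 (adjusted p = 0.00331) and Brg1sh_4935 against Brg1sh_3232 (0.0344) past it. The first of these passed in 2 of the 9 omissions of a single array, so it was not particular to replicate 3.

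Genes whose 3 differences from Rluc lay nearest to those of C3ar1 and F2rl2 were found by root mean square distance on the log2 scale, over 4 groups and 9 arrays, as a description. Nearest to C3ar1 were Cd200r3 (distance 0.289), Cpa3 (0.412), Itgax (0.436) and Lgmn (0.683). Nearest to F2rl2 were Lgmn (0.177), Cd200r4 (0.304), Itgax (0.389) and Cd200r3 (0.411), so 3 genes stood in both sets. Cd200r3 and Cd200r4 encode CD200 receptor family members, Cpa3 a mast cell carboxypeptidase, Itgax the CD11c integrin chain and Lgmn the lysosomal protease legumain. In Rluc, all 5 of these genes were lowest in replicate 1 and 4 of them highest in replicate 3, as C3ar1 and F2rl2 were. Cpa3 read 8.52, 9.73 and 9.87 there, and Itgax 6.46, 6.66 and 7.27. The genes nearest to C5ar1, added after its values were seen, were Fcrl1 (distance 0.0823), Ttc30b (0.109), Crtac1 (0.133) and Slc2a3 (0.145).

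**Figure D3:**
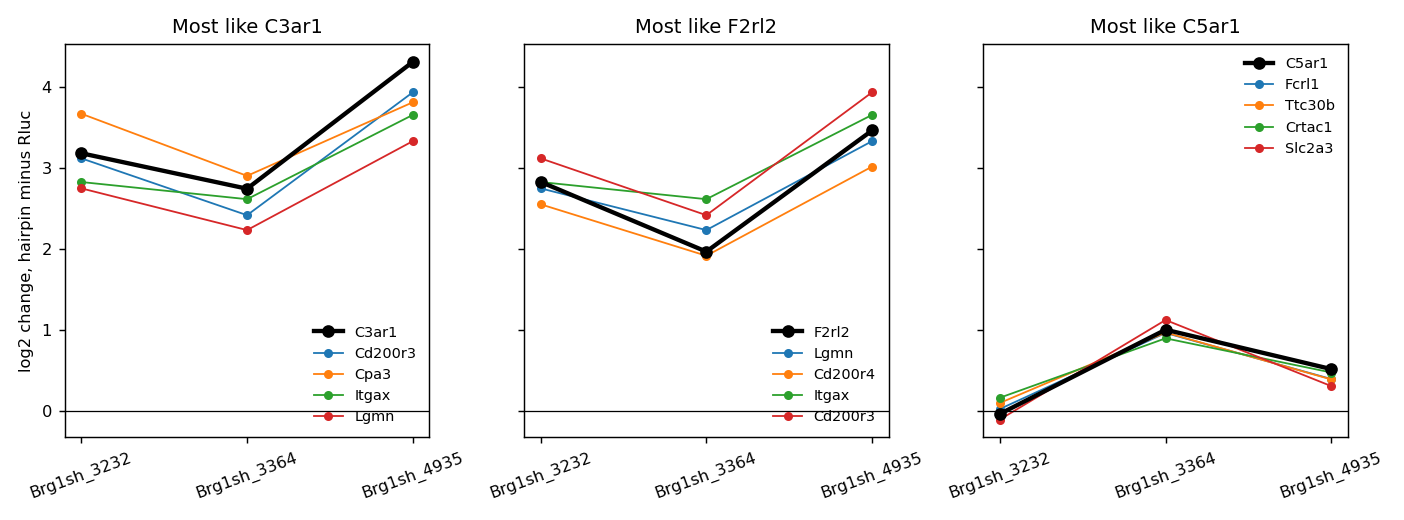
Log2 difference from Rluc with each hairpin for C3ar1, F2rl2 and C5ar1 (black) and the 4 genes nearest to each (colours); lines join the groups of a gene for reading only. The C3ar1 and F2rl2 sets dip at Brg1sh_3364 and peak at Brg1sh_4935, Cpa3 for example with 2.90 and 3.81, while the C5ar1 set peaks at Brg1sh_3364. The genes of each set were chosen by these same differences, so the shared shape follows from the choice.

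Gene neighbours were taken from the RefSeq gene order of GRCm38.p6. C5ar2, next to C5ar1 on chromosome 7, encodes the other C5a receptor, which does not couple to G proteins in the usual way. It read 10.01, 10.16 and 10.06 in Rluc, 10.30 and 10.46 with Brg1sh_3232, 11.60 and 11.66 with Brg1sh_3364, and 10.68 and 10.62 with Brg1sh_4935. All 6 knockdown arrays lay above the controls, with Brg1sh_3364 highest as for C5ar1. C5ar2 rose by 0.30 (SE 0.06, adjusted p = 0.00942), 1.55 (adjusted p = 1.77e-06) and 0.57 (adjusted p = 0.000274) in the order of the hairpin numbers. It differed among the hairpins (F test, adjusted p = 0.000101), 1.25 higher with Brg1sh_3364 than with Brg1sh_3232 (adjusted p = 4.77e-05). Ccdc9, on the other side of C5ar1, was called with Brg1sh_3364 alone, 0.16 higher (adjusted p = 0.0432), and its mean difference was 0.06 (adjusted p = 0.338).

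Around C3ar1 on chromosome 6, Foxj2, a forkhead transcription factor, rose by 0.74, 0.73 and 0.67 (mean 0.71, SE 0.07, adjusted p = 5.69e-05), and its hairpin groups did not differ detectably (F test, adjusted p = 0.817). Necap1, an endocytosis protein, rose by 0.24 with Brg1sh_3232 and 0.30 with Brg1sh_4935, while the 0.14 with Brg1sh_3364 was not called (adjusted p = 0.0617). On chromosome 13, F2rl2 lies within the span of Iqgap2, a scaffold protein of the cytoskeleton. Iqgap2 fell by 0.50, 0.40 and 0.85 (mean -0.58, SE 0.09, adjusted p = 0.000915), opposite in direction to F2rl2. Sv2c beyond F2rl2 differed by -0.04 (adjusted p = 0.639) and S100z beside F2r by 0.04 (adjusted p = 0.617). Of genes beside Fpr1 and Fpr2 on chromosome 17, Has1 differed by -0.03 (adjusted p = 0.743) and Fpr-rs4 by -0.01 (adjusted p = 0.897).

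**Figure D4:**
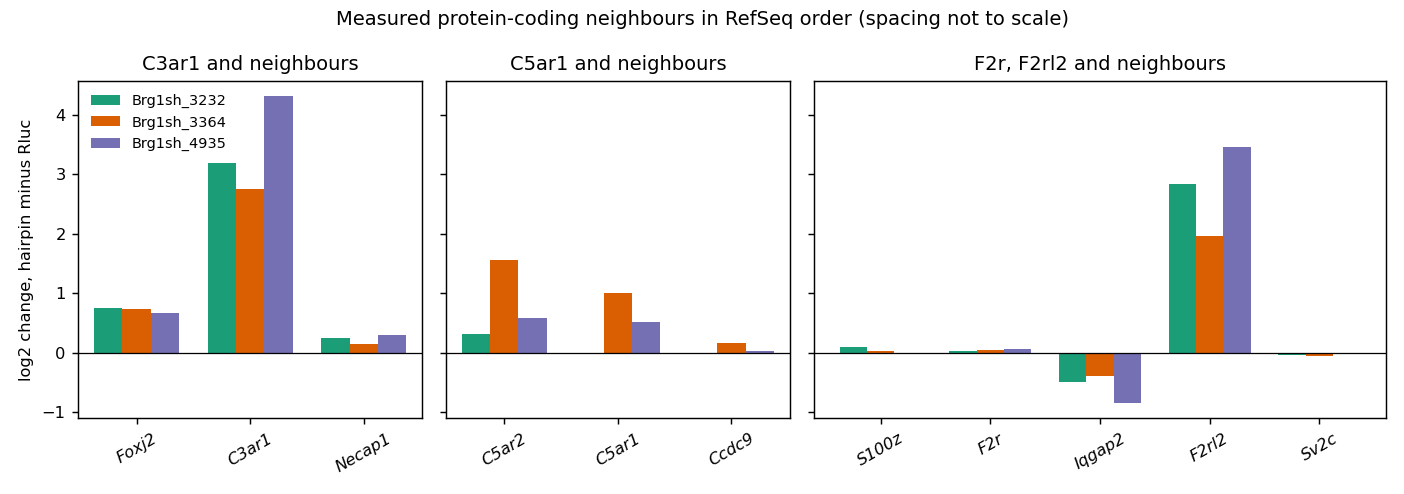
Log2 difference of each hairpin group from Rluc (bars from 0) for C3ar1, C5ar1, F2r and F2rl2 and their nearest measured protein-coding neighbours in chromosome order, with spacing not to scale. C5ar2 has the order of C5ar1 with Brg1sh_3364 highest, Foxj2 is higher by 0.67 to 0.74 beside C3ar1, and Iqgap2, which spans F2rl2, is lower with every hairpin.

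Relatives of the receptors outside the named set were mostly dim. Those that were not called, F2rl3 and 4 relatives of the formyl peptide receptors, had Rluc means of 3.84 to 7.19, below the array medians, and their distance from background was not tested. Of 6 measured (of 7 listed), 1 was called higher in the mean of the hairpins and 0 lower (all genes: 13.3% and 15.0%), and the list's median was 0.00 against -0.00 over all genes. C5ar2 was the call, and it was lost with hairpin means as single replicates (adjusted p = 0.142). F2rl3, the platelet thrombin receptor PAR4, differed by -0.17 (adjusted p = 0.2; called lower without Brg1sh_3364 replicate 2, adjusted p = 0.0261) and the formyl peptide receptor relative Fpr-rs7 by 0.08 (adjusted p = 0.349). Neither F2r nor F2rl3, the signalling receptors for thrombin, thus had a detected difference over all arrays beside the high values of F2rl2.

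Other receptors that guide leukocytes, 14 measured of 15, had 6 higher and 2 lower calls (all genes: 13.3% and 15.0%) with a median of 0.05. P2ry14, a receptor for UDP-glucose, rose by 1.69 (SE 0.08) and P2ry6, a receptor for UDP, by 1.45 (SE 0.10). Both were highest with Brg1sh_4935 and lowest with Brg1sh_3364 (P2ry14 differences of 2.20 and 1.20), the order of C3ar1 and F2rl2, and differed among the hairpins (F test, adjusted p = 0.00204 and 0.0062). Ptafr, the platelet-activating factor receptor, rose by 1.03 (SE 0.08). Cysltr1, a leukotriene receptor, fell by 0.95 (SE 0.07), a call lost with hairpin means as single replicates (adjusted p = 0.0648).

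On the ligand side, 22 of 24 complement components and formyl peptide receptor ligands were measured, with 5 higher calls, 1 lower (all genes: 13.3% and 15.0%) and a median of 0.06. Cfp, which encodes properdin, rose by 0.48 (SE 0.03), Anxa1, a ligand of formyl peptide receptors, by 0.62 (SE 0.06) and the complement protease gene C1ra by 0.57 (SE 0.07). Camp, whose product CRAMP also acts on formyl peptide receptors, fell by 1.76 with Brg1sh_3232 and fell by 2.06 with Brg1sh_4935, and differed by -0.29 with Brg1sh_3364 (adjusted p = 0.43). Its mean call was lost with hairpin means as single replicates (adjusted p = 0.128). Genes for C2, C4b and Hc, the last of which encodes the source of C5a, were not called in the mean, and C3 was not analysed here. Hc rose by 0.18 with Brg1sh_3232 alone (adjusted p = 0.027).

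Proteases and cofactors that act on protease-activated receptors, all 20 measured, had 1 higher and 8 lower calls (all genes: 13.3% and 15.0%) and a median of -0.06. Plaur, the urokinase receptor, rose by 0.42 (SE 0.04). Tfpi, the inhibitor of the tissue factor pathway, fell by 0.61 (SE 0.07) and the coagulation factor gene F7 by 0.76 (SE 0.10). The neutrophil proteases Prtn3 and Elane fell by 0.56 (SE 0.05) and 0.38 (SE 0.05), and neither call held with hairpin means as single replicates (adjusted p = 0.0674 and 0.0784). With Brg1sh_3232 neither was called (-0.20 and -0.13, adjusted p = 0.0668 and 0.185). F2, which encodes thrombin itself, differed by -0.06 in the mean (adjusted p = 0.366) and was called lower with Brg1sh_3364 (-0.16, adjusted p = 0.044).

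Complement regulators and receptors for C3 fragments, 18 measured of 19, had 6 higher and 2 lower calls (all genes: 13.3% and 15.0%) with a median of -0.00. Itgax rose by 3.03 (SE 0.15) and Itgam by 0.40 (SE 0.03), and each encodes the alpha chain of an integrin that binds C3 fragments. The membrane regulators Cd46 and Cd59a rose by 0.62 (SE 0.07) and 0.81 (SE 0.11), calls lost with hairpin means as single replicates (adjusted p = 0.0518 and 0.0589). C1qbp, which can bind C1q but resides mainly in mitochondria, fell by 0.61 (SE 0.05).

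Inside the cell, 17 G protein subunits had 2 higher and 4 lower calls (all genes: 13.3% and 15.0%) and a median of 0.03. Gng2 rose by 0.51 (SE 0.05) and Gnaq by 0.28 (SE 0.04), and Gnai3, an inhibitory alpha subunit, fell by 0.35 (SE 0.04). Gnai2, the inhibitory subunit that leukocyte chemoattractant receptors use most, differed by 0.03 (adjusted p = 0.657). Of effectors, 21 measured of 23, 14 were called higher and 1 lower (all genes: 13.3% and 15.0%) with a median of 0.28. These included the calcium channel gene Itpr2, which rose by 0.60 (SE 0.04), and the Src family kinase Fgr, by 0.92 (SE 0.06). The protein kinase Prkcd rose by 0.48 (SE 0.04) and the phosphoinositide kinase subunit Pik3cg by 0.27 (SE 0.03). Plcb1 was the lower call and fell by 0.34 (SE 0.05). Most effectors read above the array medians in Rluc, while the share over all genes counts dim genes too. With genes below the median level left out, 5547 genes were still called in the mean, against 5635 with all genes.

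Proteins that end receptor signals, 13 measured of 15, had 8 higher and 0 lower calls (all genes: 13.3% and 15.0%) and a median of 0.25. Rgs2, Rgs3 and Rgs14, which speed the turn-off of G proteins, rose by 0.81 (SE 0.04), 0.79 (SE 0.05) and 0.67 (SE 0.05), and Rgs1 by 1.68 (SE 0.15). Arrb1, an arrestin, rose by 0.55 (SE 0.06). With hairpin means as single replicates, calls over all 19937 genes went from 5635 to 2816 in the mean of the hairpins. These lists then kept fewer calls too, with 9 higher and 1 lower among effectors and 6 and 0 among signal-ending proteins. There were 2 and 1 among G proteins and 3 and 0 among other chemoattractant receptors. Complement components and ligands then had 3 and 0, regulators 4 and 1, and the proteases 1 and 2.

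**Figure D5:**
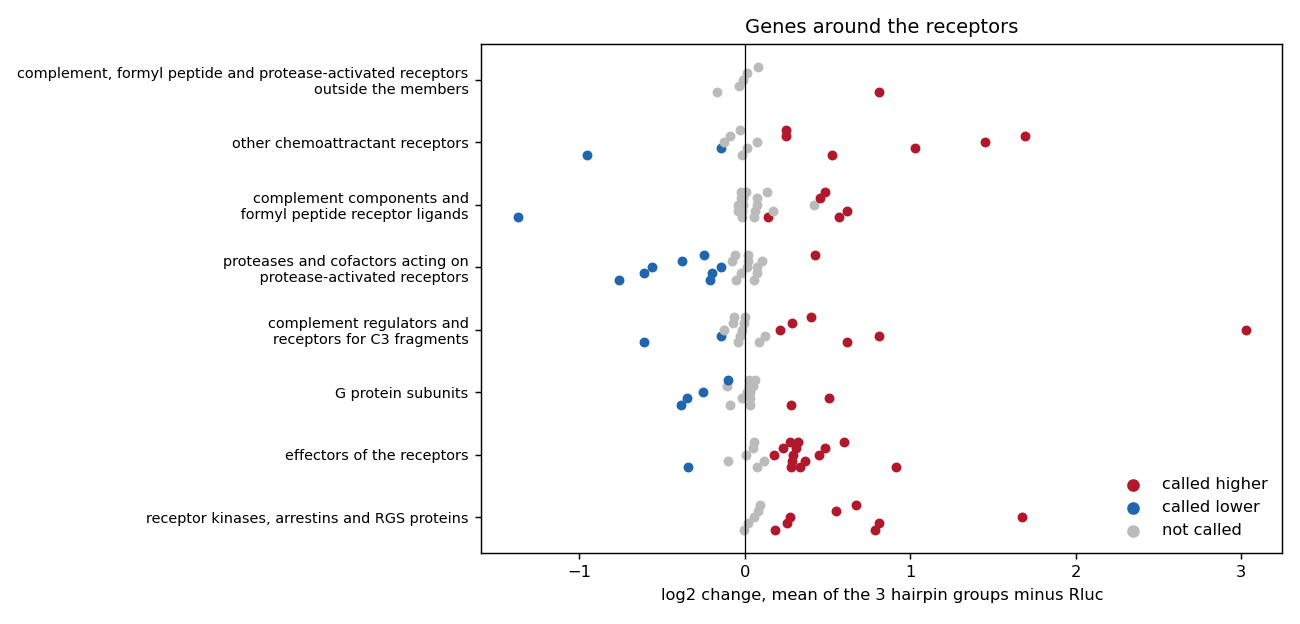
Log2 difference of the mean of the 3 hairpin groups from Rluc for each measured gene of 8 lists around the receptors; each point is a gene, red if called higher, blue if called lower and grey if not called at adjusted p below 0.05. Effectors and signal-ending proteins lie mostly to the right of 0 with medians of 0.28 and 0.25, and the point at 3.03 is Itgax.

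Markers of other cell types were read beside C3ar1 and F2rl2. Over 9 mast cell markers the mean level per array was 7.43 to 7.62 in Rluc and 7.89 to 8.02 in the knockdown arrays. The list's median difference in the mean of the hairpins was 0.02, with 2 higher and 1 lower calls (all genes: 13.3% and 15.0%). Cpa3 (3.46, SE 0.25) had by far the largest difference of the list and is also among the genes nearest to C3ar1. Cpa3 and Gata2 (0.40, SE 0.07) were called higher, and Ms4a2, the beta chain of the IgE receptor, fell by 0.43 (SE 0.11). Kit differed by 0.02 (adjusted p = 0.741). The proteases Cma1, Mcpt4, Tpsab1 and Tpsb2 and the IgE receptor gene Fcer1a differed by 0.01 to 0.09, none called, and in Rluc read 5.45, 5.42, 6.24, 6.57 and 4.57, below the array medians. Over 6 measured of 10 megakaryocyte and platelet markers the mean level was 6.97 to 7.09 in Rluc and 7.08 to 7.22 in the knockdown arrays. Vwf rose by 0.25 (SE 0.05), and the platelet genes Pf4 and Ppbp differed by -0.03 (adjusted p = 0.716) and 0.10 (adjusted p = 0.297). Gp9 differed by 0.14 in the mean (adjusted p = 0.611) but not alike between hairpins (F test, adjusted p = 0.048). It rose by 0.69 with Brg1sh_3364 (adjusted p = 0.0322) and differed by -0.01 with Brg1sh_3232 and -0.27 with Brg1sh_4935 (adjusted p = 0.993 and 0.446). Of 7 endothelial markers 1 was called, Pecam1, which leukocytes also express and which rose by 0.56 (SE 0.04). Whether such cells have a part in the receptor values was not tested.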

How the data were processed

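Per the submitters' processing notes the arrays were processed with RMA, and each deposited value is the log2 expression of a probe set, with version, software and genome build not given in the sources used here. Every deposited column was mapped to an array by its labels. Of 34760 probe sets, 21640 had 1 gene symbol, and the brightest probe set stood for a gene, which left 19937 genes without a filter. A limma 3.58.1 model of 4 group means over all 9 arrays was fitted in R 4.3.3 (eBayes, 5 residual and 3.85 prior degrees of freedom), which was tested on simulated data. Tests were two-sided, with Benjamini-Hochberg adjustment over all genes, and genes were called at adjusted p below 0.05. A called gene is said to have risen or fallen.

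The members and gene lists were chosen with earlier results of these data known. The genes named were the members, Smarca4, up to 3 genes per list with the smallest p, the 4 genes nearest to C3ar1 and to F2rl2, and measured protein-coding neighbours; other genes were chosen after their values were seen. Alternatives were a further quantile normalization, centring on array medians, leaving out dim genes, averaging probe sets, testing all rows, a replicate block, a trended robust eBayes, hairpin and control arrays alone, hairpin means as replicates, a threshold of 0.01 and leaving out each array. Replicate numbers are shared between groups in the labels, but correlations of same-numbered deviations ran from -0.07 to 0.25, so the numbers were not taken to pair the arrays. No batch is given in the labels. The number of arrays limits precision.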

Additional observations from a re-analysis of the deposited data

Results flagged for a closer look

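Results are given here where the hairpin groups differed from each other by an F test over all genes. C5ar1 differed among the 3 hairpin groups (adjusted p = 7.73e-05), with 9.03 ± 0.06, 10.07 ± 0.02 and 9.58 ± 0.01 (SD, n = 2 each) for Brg1sh_3232, Brg1sh_3364 and Brg1sh_4935. C3ar1 differed too (adjusted p = 0.00937), with 10.94 ± 0.13, 10.50 ± 0.13 and 12.06 ± 0.03 (SD, n = 2 each). F2rl2 did so closer to the threshold (adjusted p = 0.0244), with 10.50 ± 0.09, 9.64 ± 0.16 and 11.13 ± 0.04 (SD, n = 2 each). C3ar1 and F2rl2 were picked for their rises on these same arrays, so their values here are a description. Both of their calls were lost when every row was tested and without some single arrays. Groups of 2 or 3 arrays are too small to test a single array against the rest of its group.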

How the results depend on the processing

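Signs of called differences held in all alternatives run for C3ar1, F2rl2 and C5ar1; F2r had no call in any. Counts of receptors called against Rluc kept their values except in the mean of the hairpins, which ranged from 2 to 3. Counts of genes called moved more. At adjusted p below 0.01 they were 2380, 3246 and 2813 for Brg1sh_3232, Brg1sh_3364 and Brg1sh_4935 against Rluc (from 4155, 5133 and 4402 at 0.05). Between hairpins they were 759 (from 1925), 25 (from 204) and 637 (from 1518) for Brg1sh_3364 against Brg1sh_3232, Brg1sh_4935 against Brg1sh_3232 and Brg1sh_4935 against Brg1sh_3364, and 775 (from 2086) by the F test. At 0.01 F2rl2 also lost its F test call (adjusted p = 0.0244) and its call between Brg1sh_4935 and Brg1sh_3364 (adjusted p = 0.0132). Fitting Brg1sh_3232 and Rluc alone gave 2475 genes, and hairpin means as single replicates gave 2816 for the mean (from 5635).

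With every row tested, 18, 840 and 1134 were called for Brg1sh_4935 against Brg1sh_3232, Brg1sh_4935 against Brg1sh_3364 and the F test, and 1 receptor by the F test, where C3ar1 (adjusted p = 0.0513) and F2rl2 (0.0907) were lost. For Brg1sh_4935 against Brg1sh_3232, quantile normalization gave 310 genes and 2 receptors, centring 2 receptors, and leaving out dim genes 394 genes; C3ar1 was the receptor gained (0.0424 and 0.0393). Leaving out dim genes leaves out F2r, so it gives no count of receptors; under it C3ar1 was gained in the same pair (0.0357) and F2rl2 in Brg1sh_3364 against Brg1sh_3232 (0.0473). Centring lowered the share of higher calls from 47.1% to 36.5% in the mean, from 44.3% to 31.6% for Brg1sh_4935 against Rluc and from 59.8% to 46.9% for Brg1sh_4935 against Brg1sh_3232.

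The replicate block gave 382 genes and 2 receptors for Brg1sh_4935 against Brg1sh_3232, with C3ar1 gained (0.018). It gave 2 receptors for Brg1sh_3364 against Brg1sh_3232, with F2rl2 gained (0.00622), and under the block no other receptor count changed.

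Leaving out 1 array gave 2473 to 4136, 3424 to 5052 and 2673 to 4292 genes for the 3 hairpins against Rluc and 4705 to 5407 for their mean. Between hairpins it gave 702 to 2213, 8 to 467 and 486 to 1830, and 677 to 2521 by the F test. Receptors called then ranged from 1 to 2, 0 to 3 and 1 to 3 between hairpins and 1 to 3 by the F test. The causes of these shifts were not tested.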

Other observations

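Some genes of the lists around the receptors shared with C5ar1 and C5ar2 that Brg1sh_3364 gave their highest value; they were chosen after their values were seen. S1pr4, a sphingosine-1-phosphate receptor, rose by 0.84 with Brg1sh_3364 (adjusted p = 2.04e-05) and differed by -0.10 and 0.01 with Brg1sh_3232 and Brg1sh_4935 (adjusted p = 0.3 and 0.966; F test among the hairpins, adjusted p = 0.00026). Ltb4r1, the leukotriene B4 receptor, rose by 0.54 with Brg1sh_3364 (adjusted p = 0.0056), against -0.11 and -0.20 (adjusted p = 0.569 and 0.277; F test, adjusted p = 0.0085). Plau, which encodes urokinase, rose by 0.65 with Brg1sh_3364 (adjusted p = 0.000628), against -0.26 and -0.17 (adjusted p = 0.0627 and 0.246; F test, adjusted p = 0.0012).

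C1qb and C1qc, which encode chains of the complement protein C1q, had their highest values with Brg1sh_4935. C1qb rose by 1.02 there (adjusted p = 0.00183) and C1qc by 0.63 (adjusted p = 0.000713), while C1qa differed by 0.08 (adjusted p = 0.416). With Brg1sh_3232 and Brg1sh_3364 the C1qb differences were 0.07 and 0.28 and those of C1qc -0.15 and 0.03, none called.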
